A study of Homo sapiens with 47 samples.

Results

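Bulk RNA-seq levels are described for 10 of the 58051 genes listed in each library. They are the Notch ligands *DLL1*, *DLL3* and *JAG1*, the receptor *NOTCH1*, the Notch modifier *LFNG*, the feedback gene *NRARP*, the transcriptional repressors *HES1*, *HES5* and *HES7*, and the somite boundary gene *MESP2*. They were chosen by name as Notch pathway and segmentation clock genes, with no threshold on their values, and all 10 were found. The data were 47 libraries of WA09 (H9) cells, an established human embryonic stem cell (hESC) line, taken through 3 independent differentiations. Of these, 35 were whole cultures at 12 time points and 12 were fractions of the P5 and P8 cultures. The study followed neuromesodermal progenitor (NMP)-like cells as they became pre-neural progenitors (PNPs) and neural crest (NC) during repeated passaging.

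Undifferentiated hESCs in mTESR1 formed the t0 group. The 36h group had spent 36 h in N2B27 medium lacking vitamin A, with CHIR-99021 (a WNT pathway agonist), rhFGF2 (a fibroblast growth factor), AGN193109 (an inverse agonist of retinoic acid receptors) and Y-27632 (a ROCK inhibitor). Cultures P1 to P10 were then dissociated and re-plated at each passage in those same supplements, so that no passage group lacks them and no untreated culture runs alongside. At P5 and P8, timed TrypLE treatment lifted cells separately into a mesenchymal (MES, NC) and an epithelial (EPI, PNP) fraction, which enriches for each type and does not purify it. Every group had 3 libraries, one from each differentiation, apart from P9 with 2 (differentiations 1 and 2). Since all came from 1 line, the tests measure spread between differentiations of that line.

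Notch receptors are cleaved when a ligand on a neighboring cell binds them, and the freed intracellular part joins the DNA-binding protein RBPJ to switch on target genes, among them *HES* genes. In presomitic mesoderm, the tissue that is cut into somites, *HES7* represses its own transcription and that of *LFNG*, and the resulting oscillation is the segmentation clock. *MESP2* then marks the cells where the next boundary forms. In neural tissue the same pathway, through *HES1* and *HES5*, holds progenitors back from becoming neurons. A bulk library averages many cells, so an oscillation within cells cannot be seen here, and fewer cells of a type cannot be told apart from less RNA per cell.

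In GRCh38 (GENCODE 29 gene bounds), the ligand genes are *DLL1* (ENSG00000198719) at chr6:170282206-170306565 on the minus strand, *DLL3* (ENSG00000090932) at chr19:39498895-39508481 on the plus strand and *JAG1* (ENSG00000101384) at chr20:10637684-10673999 on the minus strand. The receptor and its modifiers are *NOTCH1* (ENSG00000148400) at chr9:136494433-136545786 on the minus strand, *LFNG* (ENSG00000106003) at chr7:2512529-2529177 on the plus strand and *NRARP* (ENSG00000198435) at chr9:137300482-137302251 on the minus strand. The repressors are *HES1* (ENSG00000114315) at chr3:194136145-194138732 on the plus strand, *HES5* (ENSG00000197921) at chr1:2528745-2530245 on the minus strand and *HES7* (ENSG00000179111) at chr17:8120590-8124092 on the minus strand, and *MESP2* (ENSG00000188095) at chr15:89760591-89778754 on the plus strand completes the set. Levels refer to whole genes, exons of all transcripts together. *DLL1*, *JAG1*, *NOTCH1* and *HES5* overlap annotated genes on the opposite strand, whose reads could be mixed with theirs if counting ignored strand, which is not given in the sources used here.

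Library totals ran from 13029491 to 64082859 expected counts (median 47292229), and 4 libraries were under 25000000. The differentiations did not keep the same pace. The pluripotency gene *POU5F1*, at 1569 to 1749 TPM (a transcript's share of its library, scaled by length) at t0, still read 863 TPM in P1 of differentiation 1 but 18.7 and 5.07 TPM in P1 of differentiations 2 and 3. The presomitic markers *TBX6* and *MSGN1* summed to 6.56 to 628.8 TPM at 36h, and to no more than 2.71 TPM at P5. In both P9 libraries and in P10 of differentiations 2 and 3 *SOX2*, which marks pre-neural progenitors, was below every P2 to P8 whole culture. It read 4.88 and 5.98 TPM at P9 and 0.50 and 0.71 TPM in those P10 libraries, against 214.1 TPM in P10 of differentiation 1, and was as low as 2.77 and 3.03 TPM in P1 of differentiations 2 and 3. In the fractions, the 6 NC markers summed to 210.9 to 325.4 TPM in P5 MES and 48.6 to 125.2 TPM in P5 EPI, so the P5 fractions differed in the direction of their labels. At P8 they overlapped, at 256.7 to 775.1 TPM in MES and 105.8 to 569.1 TPM in EPI.

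Most of the 10 genes shared an early wave of expression. *DLL1*, *DLL3*, *NOTCH1*, *LFNG*, *NRARP*, *HES7* and *MESP2* each reached their highest TPM between 36h and P3 in all 3 differentiations. Of the 13373 genes averaging 100 normalized counts or more, 1473 (11%) did so. All 7 also peaked later in differentiation 1 than in the other two, which held for 4.32% of those genes. The wave ran from P2 to P3 in differentiation 1, from P1 to P2 in differentiation 2 and from 36h to P1 in differentiation 3. *JAG1*, *HES1* and *HES5* followed other courses. Peaks were compared over the 11 time points shared by the differentiations, and for all 30 combinations of gene and differentiation normalized counts gave the same time point as TPM.

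**Figure D1:**
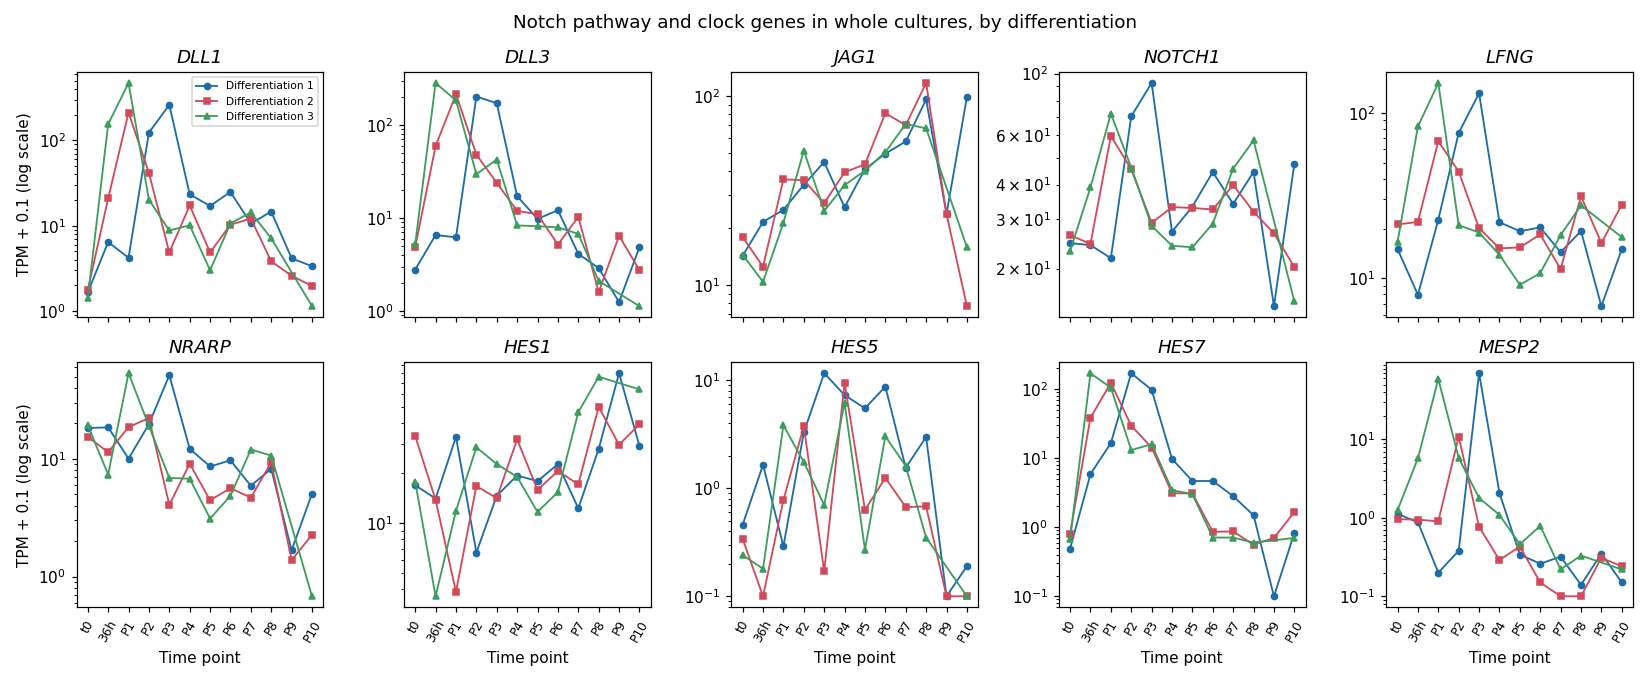
TPM plus 0.1, on a log axis, of the 10 genes in whole cultures from t0 to P10, with one line and symbol per differentiation (the line of differentiation 3 passes over P9, for which it has no library). The 7 genes of the early wave peak between 36h and P3, later in differentiation 1 than in the others, while *JAG1* climbs toward P8 and *HES1* dips early.

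Delta-like ligands carried the largest levels of the set. *DLL1*, a transmembrane ligand that activates Notch on neighboring cells, read 1.31 to 1.66 TPM at t0. In differentiation 1 it read 6.31 TPM at 36h, 4.11 at P1, 122.9 at P2 and 259.8 at P3. Differentiation 2 gave 20.7, 211.6, 41.3 and 4.75 TPM at the same 4 time points. In differentiation 3 the values were 154.4, 468.9, 20.01 and 8.68 TPM. The gene was therefore above every t0 library in all 12 libraries from 36h to P3, by different margins. The peak was 128-fold to 358-fold over t0 of the same differentiation. From P4 to P8 it stayed between 2.90 and 24.8 TPM, and at P10 it read 3.25, 1.86 and 1.04 TPM.

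*DLL3*, a divergent ligand that acts inside the cell and is needed for regular somites, peaked together with *HES7*. It read 2.69, 4.79 and 5.15 TPM at t0 in differentiations 1, 2 and 3. Its maxima were 202.4 TPM at P2 in differentiation 1, 214.6 TPM at P1 in differentiation 2 and 283.0 TPM at 36h in differentiation 3. In differentiation 1 it was still at 171.8 TPM in P3, when *DLL1* had its maximum. By P8 it read 2.80, 1.5 and 2.01 TPM, so that 2 of 3 libraries were below every t0 library.

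*JAG1*, a ligand of the Jagged family, was highest late. At t0 it read 14.1, 17.8 and 14.3 TPM, and at 36h 21.5, 12.4 and 10.3 TPM. The 3 libraries lay between 40.2 and 43.4 TPM at P5, between 57.3 and 71.0 at P7 and at 95.8, 117.0 and 67.3 TPM at P8. Every P8 library was above every library of P5 and earlier. At P9 both libraries dropped back to 23.7 TPM. P10 split, with 98.3 TPM in differentiation 1 against 7.62 and 15.8 TPM in differentiations 2 and 3, the same libraries in which *SOX2* was low. Whether the cell composition of those libraries plays a part was not tested.

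*NOTCH1*, the receptor, stayed between 14.6 and 92.4 TPM in all whole cultures. It read 23.0 to 26.3 TPM at t0 and peaked at 92.4 TPM at P3 in differentiation 1, 59.6 at P1 in differentiation 2 and 71.8 at P1 in differentiation 3. That is 3.76-fold, 2.27-fold and 3.12-fold over t0. *LFNG*, a glycosyltransferase that modifies Notch receptors and alters their response to ligands, read 15.0, 21.1 and 16.5 TPM at t0. Its maxima, at the same 3 time points as those of *NOTCH1*, were 130.8, 67.3 and 151.0 TPM. From P4 to P8 it lay between 9.05 and 31.2 TPM, a range that includes all t0 values. *NRARP*, a direct Notch target whose product limits Notch signaling, read 15.3 to 19.2 TPM at t0 and peaked at 51.2 TPM (P3), 22.2 TPM (P2) and 53.3 TPM (P1) in differentiations 1, 2 and 3. By P5 it read 8.51, 4.35 and 3.01 TPM, below every t0 library.

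*HES7*, the repressor at the core of the clock, was nearly silent in hESCs. It read 0.39, 0.71 and 0.57 TPM at t0 and 5.79, 38.6 and 170.0 TPM at 36h, so that all 36h libraries were above all t0 libraries. The values at P1 were 16.5, 123.5 and 105.4 TPM, and at P2 171.0, 29.5 and 13.0 TPM. The order of the differentiations was thus turned around between 36h and P2. The peak was 438-fold, 174-fold and 298-fold over t0 in differentiations 1, 2 and 3. By P6 it read 4.58, 0.76 and 0.61 TPM, and P8 held 53, 17 and 12 counts. RSEM gave *HES7* effective lengths from 692.7 to 1599.8 bases among the libraries, so its TPM also carries how reads were divided between transcripts.

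*HES1*, a repressor used by many cell types, was lowest where *HES7* was highest. In differentiation 1 it read 16.8 TPM at t0, 13.96 at 36h, 33.0 at P1, 6.54 at P2 and 14.5 at P3. Differentiation 2 gave 33.4, 13.7, 3.75, 16.6 and 14.02 TPM. In differentiation 3 the series was 17.7, 3.52, 11.8, 28.5 and 22.6 TPM. The lowest value of all 11 time points fell on the time point of the *HES7* maximum in every differentiation, namely P2, P1 and 36h. That coincidence was noticed after the values were seen, and 128 of the 13373 genes (0.957%) met it. The reverse, a maximum on the same 3 time points, was met by 57 genes (0.426%), a count that includes *HES7* itself, among them *DLL3* and, of the presomitic genes listed, *MSGN1* and *WNT3A*. At P8 *HES1* read 27.9, 50.1 and 76.2 TPM, and at P9 80.0 and 29.6 TPM.

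**Figure D2:**
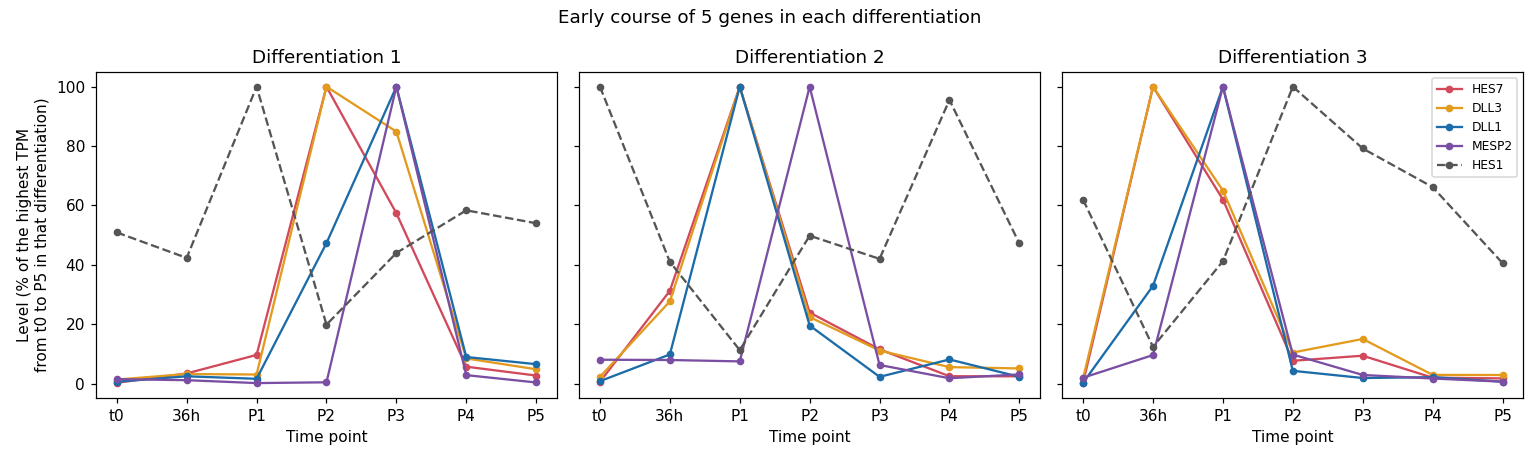
Levels of 5 genes from t0 to P5 in each differentiation, each as a percent of its own highest TPM in that window. *HES7* and *DLL3* peak together, at P2, P1 and 36h in differentiations 1, 2 and 3, where *HES1* (dashed) is at its lowest, and *MESP2* peaks one time point after *HES7* in each.

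*HES5*, a Notch target of neural progenitors, was a low gene throughout. Its counts at t0 were 11, 8 and 6. It peaked at 11.6 TPM at P3 in differentiation 1, 9.38 at P4 in differentiation 2 and 6.10 at P4 in differentiation 3. P4 was the time point at which all 3 libraries were high, at 7.20, 9.38 and 6.10 TPM, while P3 and P5 were high in differentiation 1 alone (11.6 and 5.41 TPM, against at most 0.60 TPM in the others). The neurogenic gene *NEUROG2* read 21.9, 16.4 and 12.6 TPM at P4. In differentiation 1 *NEUROG2* read 1.08 TPM at P3, 27.47 at P5 and 29.55 at P6. In differentiations 2 and 3 it read 2.03 and 5.9 TPM at P5. Counts of *HES5* were 116, 21 and 7 at P8. At P9 it had no counts in either library, which with a smallest visible count of 3 in each library makes it at least 11.1-fold higher at P8 by mean normalized counts, or at least 3.92-fold without the P8 library of differentiation 1. The fitted log2 fold change of such a gene is not a bound.

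*MESP2*, a transcription factor gene of the forming somite boundary, was high at a single time point in each differentiation. It read 0.86 to 1.15 TPM at t0. In differentiation 1 it read 0.28 TPM at P2, 69.8 at P3 and 1.97 at P4. In differentiation 2 the highest value was 10.7 TPM at P2, with 0.80 at P1 and 0.67 at P3. Differentiation 3 gave 5.64 TPM at 36h, 58.8 at P1 and 5.73 at P2. The peak fell 1 time point after that of *HES7* in each differentiation. From P6 to P10 no library had more than 5 counts. *RIPPLY1* and *RIPPLY2*, repressors that act with *MESP2* at the forming boundary, and *MEOX1*, a somite gene, were highest in the same P3 library of differentiation 1 (133.6, 72.2 and 47.0 TPM) and P2 library of differentiation 2 (26.4, 12.2 and 16.9 TPM). In differentiation 3 *RIPPLY2* peaked with *MESP2* at P1 (31.8 TPM), and *RIPPLY1* and *MEOX1* peaked at P2 (44.0 and 43.9 TPM). Effective lengths of *MESP2* ran from 573.8 to 1477.9 bases, as for *HES7* above.

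The promoters of the 3 *HES* genes and *MESP2* are shown because the timing described above sets these repressors and the boundary gene side by side. RefSeq promoters (GRCh38.p14) were found for 8 of the 10 genes, with *LFNG* represented by a pair of start sites. Promoters of *DLL1* and *DLL3* were not analysed here. The 250 bases before the start were searched on both strands for GTGGGAA, the letters bound by RBPJ, for CACNAG, the N box bound by HES repressors, and for AGGTGT, part of the site of T-box factors such as TBX6. Each sequence reads 5′ to 3′ on the strand of the gene, and capitals mark every match of any of these motifs or its reverse complement, none of which overlap.
*HES7*, chr17:8124107-8124356, minus strand: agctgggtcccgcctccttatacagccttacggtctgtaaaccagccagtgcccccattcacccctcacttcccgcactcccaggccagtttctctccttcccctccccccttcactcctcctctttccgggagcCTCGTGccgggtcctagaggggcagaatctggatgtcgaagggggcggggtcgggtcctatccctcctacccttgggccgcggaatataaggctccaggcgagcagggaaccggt
*HES1*, chr3:194135898-194136147, plus strand: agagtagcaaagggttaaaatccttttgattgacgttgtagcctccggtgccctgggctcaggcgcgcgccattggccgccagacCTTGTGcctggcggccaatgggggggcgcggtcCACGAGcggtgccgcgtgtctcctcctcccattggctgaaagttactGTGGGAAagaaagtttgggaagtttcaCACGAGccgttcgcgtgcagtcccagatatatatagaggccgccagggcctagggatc
*HES5*, chr1:2530264-2530513, minus strand: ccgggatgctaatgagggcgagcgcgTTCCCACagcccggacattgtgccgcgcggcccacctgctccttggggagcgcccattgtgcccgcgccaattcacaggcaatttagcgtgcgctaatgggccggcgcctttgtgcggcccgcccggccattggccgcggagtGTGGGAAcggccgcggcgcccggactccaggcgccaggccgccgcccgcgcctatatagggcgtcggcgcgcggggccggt
*MESP2*, chr15:89776082-89776331, plus strand: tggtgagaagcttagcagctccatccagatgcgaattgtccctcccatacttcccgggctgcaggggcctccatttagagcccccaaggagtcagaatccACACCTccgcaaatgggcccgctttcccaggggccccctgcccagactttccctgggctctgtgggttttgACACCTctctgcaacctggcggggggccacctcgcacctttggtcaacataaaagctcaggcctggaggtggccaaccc
The RBPJ letters occur in *HES1*, starting 85 bases before the start, and in *HES5*, starting 224 (as the reverse complement) and 81 bases before it, and in none of the other 6 genes searched. Of all 35116 promoters in the table, 5.43% hold them. *HES7* holds an N box starting 115 bases before the start (as the reverse complement) and *HES1* holds 3, starting 165, 132 and 58 bases before it. *LFNG* holds 1, at its second start site. An N box was present in 32.0% of all promoters. *MESP2* has the T-box letters on the opposite strand, from 150 and 79 bases before the start, a motif found in 9.57% of promoters. A match of letters is no measured site.

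Comparisons between time points used edgeR's quasi-likelihood test over all genes, with differentiation as a block. To pass, a gene needed a Benjamini-Hochberg adjusted p under 1%, a change of 2-fold or more, and 100 or more normalized counts on average in the compared libraries. From t0 to 36h, which asks what NMP induction did, 2.71% of 21750 genes passed and 1.33% passed as higher. Among the 10 genes *HES7* rose (log2 fold change 7.42, SE 1.36, adjusted p = 0.000735), higher in 3 of 3 differentiations. *DLL1* (5.45, SE 1.42, adjusted p = 0.0123) and *DLL3* (4.61, SE 1.18, adjusted p = 0.0111) were also higher in 3 of 3, just outside the 1% limit. *HES1* was lower in 3 of 3 (-1.14, SE 0.65, adjusted p = 0.283). *LFNG* (1.11), *MESP2* (0.83), *NOTCH1* (0.25), *HES5* (0.14), *JAG1* (-0.17) and *NRARP* (-0.63) differed in direction between differentiations, with adjusted p of 0.4 or more. The *HES7* call was lost without differentiation 2 (adjusted p = 0.0615) or 3 (0.112), and without differentiation 1, whose 36h library had the smallest values, *DLL1* (0.000574) and *DLL3* (0.000331) passed too.

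The wave genes peaked later in differentiation 1 than in the others. Whether this bears on the single-passage comparisons that follow was not tested. From 36h to P1 1.19% of genes passed, from P1 to P3 1.09%, from P3 to P5 0.0138% and from P5 to P8 0.0092%, and none of the 10 genes was among them in these edgeR fits. At an unadjusted p under 0.05 there were 1, 0, 6 and 2 of the 10, against 23.37%, 21.07%, 7.1% and 13.3% of all genes. Log2 fold changes ran from 0.17 for *HES7* to 3.12 for *HES5* at P1 against 36h, from -2.27 for *DLL1* to 1.04 for *MESP2* at P3 against P1, and from -6.54 for *MESP2* to 0.34 for *JAG1* at P5 against P3. At P8 against P5 they ran from -2.01 for *HES7* to 1.74 for *HES1*, leaving out *MESP2*, which had at most 3 counts at P8. DESeq2 passed *MESP2* as lower at P5 than at P3 (log2 fold change -6.49, adjusted p = 0.0041) and no other of the 10 in these 4 comparisons. At P5 against P3 it passed 58 of all genes, against 3 in edgeR. Without differentiation 1, which held the 69.8 TPM of P3, edgeR gave *MESP2* -2.00 (adjusted p = 0.716). Without differentiation 1, *DLL1* (-5.64), *DLL3* (-2.67), *NOTCH1* (-1.31), *NRARP* (-2.84) and *HES7* (-3.13) passed as lower at P3 than at P1 on the log2 scale. All of these genes rose from P1 to P3 in differentiation 1, the one left out. Of all genes 820 passed in that fit, against 238 with every differentiation included. *MESP2* changed sign in that fit, from 1.04 to -4.19.

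The average of P1 to P3 takes in the maxima of the 7 wave genes except those of *HES7* and *DLL3* in differentiation 3, which fell at 36h. This average was compared with t0 after the per-passage values had been seen, so its tests describe a pattern already noticed. It passed 12.4% of all genes, 5.5% as higher. *HES7* (log2 fold change 6.74, SE 1.27, adjusted p = 0.000111), *DLL1* (5.92, SE 1.37, adjusted p = 0.000971) and *DLL3* (4.40, SE 1.10, adjusted p = 0.00184) rose. *NOTCH1* (1.04, adjusted p = 0.0284), *LFNG* (1.77, 0.0385), *MESP2* (3.74, 0.0396), *HES5* (3.31, 0.0233) and *JAG1* (1.00, 0.0548) were higher in 3 of 3 differentiations without passing. An unadjusted p under 0.05 was reached by 8 of the 10, against 54.57% of all genes. *NRARP* and *HES1* had no common direction, with 2 of 3 differentiations higher for each. Without differentiation 2 none of the 10 passed, with adjusted p of 0.0115 for *HES7*, 0.0349 for *DLL1* and 0.0458 for *DLL3*. Without differentiation 3 only *HES7* did.

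After the wave, 6 of the 10 genes fell. Against the average of P1 to P3, also chosen after the values were seen, the average of P6 to P8 passed 5.78% of all genes, 2.37% as lower. *MESP2* (log2 fold change -7.43, SE 1.2, adjusted p = 2.69e-05), *HES7* (-5.76, SE 0.71, 1.54e-06), *DLL3* (-4.40, SE 0.67, 2.05e-05), *DLL1* (-3.22, SE 0.72, 0.0012), *LFNG* (-1.81, SE 0.45, 0.00304) and *NRARP* (-1.59, SE 0.40, 0.00296) fell, each in 3 of 3 differentiations. No P6 to P8 library held more than 5 counts of *MESP2*, so the size of its fitted change depends on the prior count. *JAG1* was higher in 3 of 3 with an adjusted p of 0.00859 and a log2 fold change of 0.99, just under the 2-fold limit. *NOTCH1* (-0.48, 0.154), *HES5* (-0.81, 0.354) and *HES1* (0.72, 0.144) did not pass. An unadjusted p under 0.05 was reached by 7 of the 10, against 44.49% of all genes. *DLL3*, *HES7* and *MESP2* passed with any 1 differentiation left out, whereas *LFNG* and *NRARP* were lost whichever differentiation was left out (adjusted p = 0.0108 to 0.0457 and 0.0117 to 0.0513), and *DLL1* was lost without differentiation 2 (adjusted p = 0.0435) or 3 (0.0181).

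**Figure D3:**
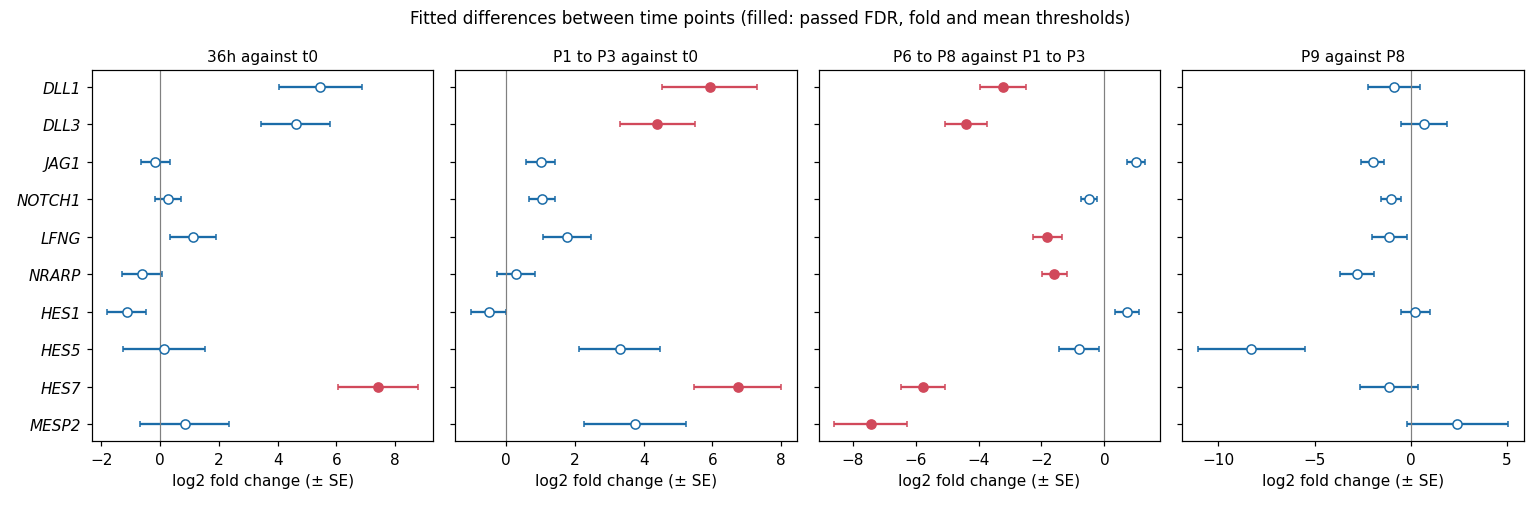
Log2 fold change with its standard error from the edgeR fit of whole cultures for the 10 genes in 4 comparisons. Filled points passed the thresholds, namely *HES7* at 36h, 3 genes as higher in P1 to P3 than at t0, and 6 as lower in P6 to P8 than in P1 to P3. The *HES5* value against P9 rests on a group without counts.

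At P9 both libraries were below all P8 libraries for *JAG1*, *NOTCH1*, *LFNG*, *NRARP* and *HES5*, as they were for 17.7% of all genes tested. From P8 to P9 1.22% of all genes passed and none of the 10. At an unadjusted p under 0.05 there were 3 of the 10, against 26.25% of all genes. *JAG1* (log2 fold change -1.98, SE 0.59, adjusted p = 0.0356) and *NRARP* (-2.80, SE 0.86, adjusted p = 0.0407) missed the 1% limit in edgeR, with 2 P9 libraries, and passed in DESeq2 (0.00392 and 0.00287). *NRARP* read 8.12, 9.24 and 10.6 TPM at P8 and 1.57 and 1.28 TPM at P9. From P8 to P10 0.0874% passed and again none of the 10 (3 at an unadjusted p under 0.05, against 16.42% of all genes, and none by DESeq2). Leaving out differentiation 1, whose P10 library kept *JAG1* and *SOX2* high, let *JAG1* (-2.81), *NRARP* (-2.80) and *NOTCH1* (-1.32) pass as lower at P10. In that fit 917 of all genes passed, against 19 with every differentiation included. The library left out held the highest P10 value of each of these genes, so its removal by itself lowers their P10 average.

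In the P5 fractions, 6 of the 10 genes were lower in MES than in EPI of the same culture in 3 of 3 pairs, and *JAG1* and *HES1* were higher in 3 of 3. Of all 18885 genes tested, 31.6% were lower and 24.7% higher in every pair. *DLL1* read 16.1, 5.70 and 3.24 TPM in P5 EPI and 4.96, 1.22 and 1.09 TPM in P5 MES of differentiations 1, 2 and 3. Each MES fraction was under its own EPI fraction, although the groups overlapped because differentiation 1 was high in both. *HES7* showed the same order at a lower level, with 5.74, 2.82 and 4.03 TPM in EPI and 3.39, 1.2 and 1.01 TPM in MES. *NRARP* read 9.72, 4.83 and 4.35 TPM in EPI and 5.46, 3.68 and 1.29 TPM in MES. *HES1* went the other way and did not overlap, at 15.97, 12.5 and 10.7 TPM in EPI and 18.5, 28.9 and 20.2 TPM in MES. *NOTCH1*, lower in MES, did not overlap either (32.55 to 39.07 TPM in EPI, 21.22 to 29.74 TPM in MES). Of all genes tested, 13.1% were higher and 16.3% lower in MES without overlap. *HES5* counts were 227, 7 and 4 in EPI and 57, 0 and 2 in MES. The summed pre-neural markers also differed, at 695.5 to 1000.2 TPM in EPI and 149.4 to 403.0 TPM in MES, and the part of cell composition in these differences was not tested. *MESP2* had at most 12 counts in any fraction and was removed by the filter on low counts, leaving 9 genes tested.

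The fit with one term per differentiation passed 0% of 18885 genes between MES and EPI at P5 (4894 had an unadjusted p under 0.05) and 0% at P8 (2261 did). DESeq2 passed 674 and 55 genes. In the edgeR fit with one term per differentiation *HES7* (log2 fold change -1.54, SE 0.33, adjusted p = 0.0318) and *DLL1* (-1.73, SE 0.44, 0.0502) came nearest at P5. Fractions of 1 culture deviated together within a passage (mean correlation of deviations 0.65 at P5 and 0.78 at P8), and a block for each differentiation within each passage was added after this was seen. It passed 1.62% of genes at P5 and 0% at P8. With that block *DLL1* fell in MES at P5 (-1.69, SE 0.20, adjusted p = 0.00557), and it was the 1 member to pass, as it was in DESeq2 (0.00111). *HES7* (-1.51, adjusted p = 0.0147), *LFNG* (-0.56, 0.0224), *NRARP* (-0.92, 0.0369), *NOTCH1* (-0.40, 0.0372) and *HES5* (-1.71, 0.044) were lower in 3 of 3 pairs and *JAG1* (0.36, 0.0285) higher in 3 of 3, none past 1%. With 69.82 and 36.62 normalized counts on average, *HES7* and *HES5* were also under the 100 counts needed to pass, and *HES7* had an adjusted p of 0.00165 in DESeq2. *HES1* (0.80, 0.0899) was higher in 3 of 3, and *DLL3* (0.27, 0.248) in 2 of 3.

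At P8 *DLL1* was again lower in each MES fraction, at 15.2, 3.23 and 8.54 TPM in EPI and 5.80, 2.38 and 4.16 TPM in MES (log2 fold change -1.12, SE 0.20, adjusted p = 0.0689 with the block within passages). The other 8 genes tested had log2 fold changes from -0.86 for *HES5* to 0.25 for *HES1* in that fit, with *HES7* at -0.21, *NRARP* at -0.28, *JAG1* at -0.16, *LFNG* at -0.07, *NOTCH1* at 0.06 and *DLL3* at 0.15, and adjusted p of 0.308 or more. The fraction difference itself was not shown to change between the passages. With one term per differentiation that test passed 0% of genes (1152 at an unadjusted p under 0.05, 1 by DESeq2), and *HES7* (1.36, adjusted p = 0.816) had an unadjusted p under 0.05. With the block within passages *JAG1* (-0.52, adjusted p = 0.266), *NOTCH1* (0.46, 0.322), *HES7* (1.3, 0.338) and *LFNG* (0.50, 0.341) did, none past the limit.

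**Figure D4:**
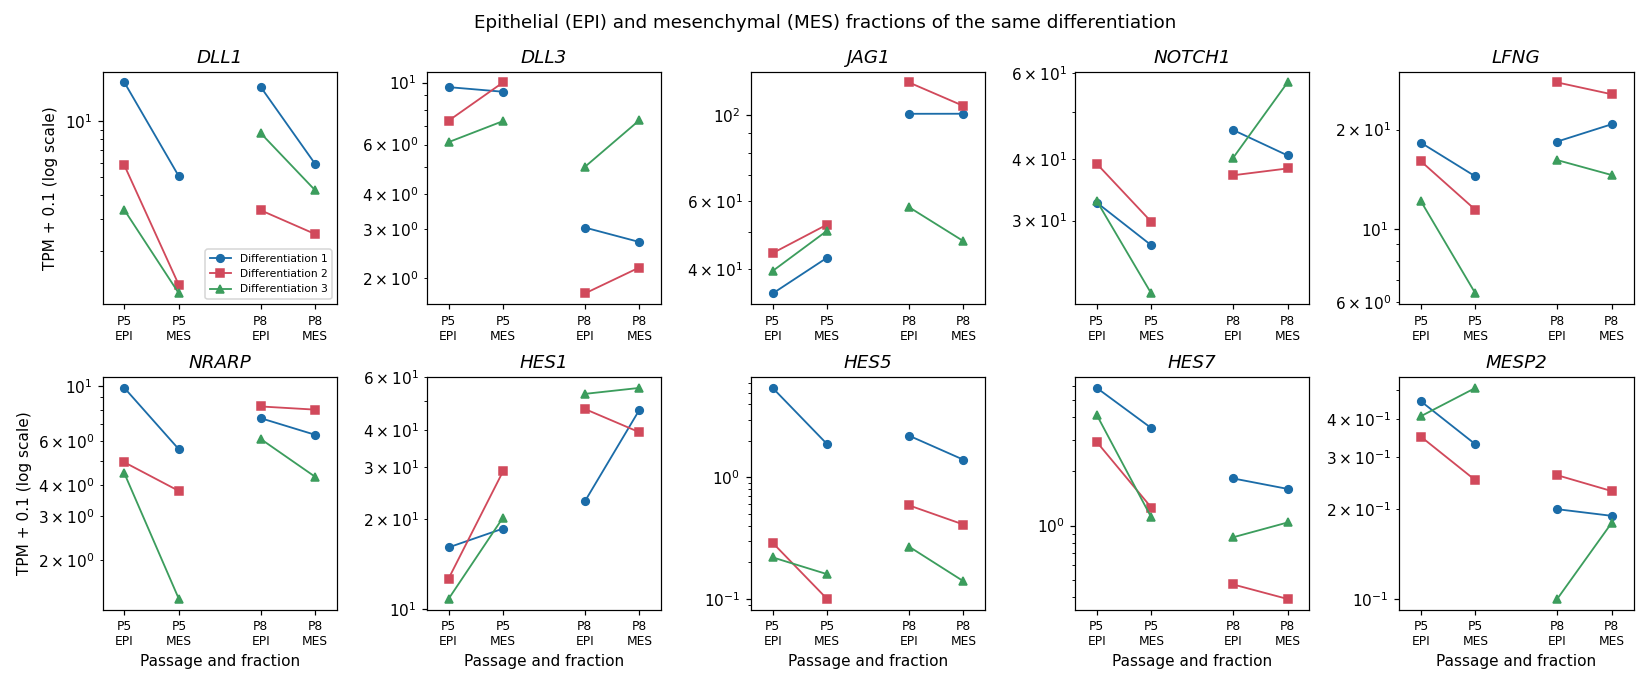
TPM plus 0.1, on a log axis, of the 10 genes in EPI and MES fractions at P5 and P8, with lines joining fractions of the same differentiation. *DLL1*, *NRARP* and *HES5* slope down from EPI to MES in all 6 pairs, and *JAG1* and *HES1* slope up in the 3 pairs of P5. *HES5* had at most 15 counts in any fraction of differentiations 2 and 3. The share of all genes lower in all 6 pairs was not computed. Of all genes tested, 31.6% were lower in every P5 pair and 18.0% in every P8 pair.

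Each fraction was also compared between P5 and P8. In EPI 0.259% of genes passed and in MES 0.699%, none of the 10 in either, with 5 and 7 of the 9 tested at an unadjusted p under 0.05, where 31.34% and 31.15% of all genes were. *HES1* read 22.8, 46.9 and 52.7 TPM in P8 EPI, above every P5 EPI library (log2 fold change 1.63, SE 0.33, adjusted p = 0.0283). *JAG1* read 100.6, 121.2 and 57.8 TPM in P8 EPI against 34.6, 43.9 and 39.5 TPM in P5 EPI (1.21, SE 0.25, adjusted p = 0.0302). *HES7* was lower in P8 EPI (-2.28, SE 0.34, adjusted p = 0.0144), at no more than 1.73 TPM. In MES, *LFNG* (0.95, SE 0.20, adjusted p = 0.0251) and *NOTCH1* (0.81, SE 0.18, adjusted p = 0.0286) were higher at P8 in 3 of 3 differentiations. DESeq2 passed *HES1* and *JAG1* in EPI and *HES1* in MES, each as higher at P8. It passed many more of all genes than edgeR, 606 against 49 in EPI and 751 against 132 in MES.

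Another 44 Notch pathway genes were listed. At 36h 0 were higher and 1 was lower than at t0, the ubiquitin ligase gene *DTX3L* (log2 fold change -1.48, adjusted p = 0.00609). Of all genes, 2.71% passed in that comparison. From 36h to P1 the repressor gene *HES4* rose (5.31, adjusted p = 0.00546) and *DTX3* fell (-1.20, 0.00662), where 1.19% of all genes passed. In the average of P1 to P3 against t0, 4 of 44 rose and 6 fell, where 12.4% of all genes passed (median 0.13, against 0.00 over all genes). Those that rose were *HES4* (4.49), *HEYL* (3.14), *MAML3* (2.80), a coactivator, and *HEY1* (1.61), a repressor related to HES. Among those that fell were *HES3* (-4.04) and the ligand *JAG2* (-2.12). The average of P6 to P8 had 0 higher and 4 lower than that of P1 to P3, namely *DTX1* (-4.26), *HEY2* (-2.59), *HEYL* (-1.98) and *NEURL1B* (-1.02). Of all 21750 genes, 743 passed as higher and 515 (2.37%) as lower in that comparison. At P5, with the block within passages, 4 of 41 tested passed, where 1.62% of all genes did. *HEY2* (1.58), *MAML2* (1.27) and the receptor *NOTCH2* (1.14) were higher and *MAML3* (-1.48) lower in MES than in EPI. *NOTCH2* read 117.0, 105.5 and 114.7 TPM in P5 MES and 35.6, 56.9 and 62.6 TPM in P5 EPI, the reverse order to *NOTCH1*. None passed in the remaining comparisons with the main fits.

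Of 24 presomitic and segmentation genes listed, 8 rose from t0 to 36h and 0 fell, where 1.33% of all genes rose (median log2 fold change 3.24, against 0.00 over all genes). *LEF1*, a WNT effector, was the 1 that rose from 36h to P1 (2.11, adjusted p = 0.00447), where 1.19% of all genes passed. From P1 to P3, where 1.09% passed, *PAX3* was the 1 that rose (2.38, adjusted p = 0.00581). In the average of P1 to P3 15 of 24 rose against t0, where 5.5% of all genes did. In the average of P6 to P8 1 rose and 11 fell against P1 to P3, where 2.37% of all genes fell (median -2.98, against 0.00). *PAX3*, also a gene of the dorsal neural tube, was the 1 that rose (3.12, adjusted p = 3.34e-08). *TBX6*, the T-box factor of presomitic mesoderm, peaked at 140.1 TPM (P2), 192.6 TPM (P1) and 245.1 TPM (P1) in differentiations 1, 2 and 3. Of the 24, 15 peaked between 36h and P3 in all 3 differentiations, 14 of them later in differentiation 1, against 11% and 4.32% of all genes compared. Among the other Notch pathway genes 8 of 44 did, 6 of them later in differentiation 1. Among the neurogenic genes 1 of 16 did (*NKX1-2*), also later there. The 16 genes listed as neurogenic include *SOX2* and *NKX1-2*, which the paper uses as markers of NMPs and PNPs. Of the 16, 15 were tested, and none passed in the average of P1 to P3. In that of P6 to P8 2 rose, *NEUROG2* (3.62, adjusted p = 0.00049) and *SOX2* (2.55, adjusted p = 0.00715), where 743 of all 21750 genes did. With the block within passages *SOX2* (-1.77) and *NKX1-2* (-1.72) were lower in P5 MES, where 1.62% of all genes passed.

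Ordered by mean TPM over the 16 groups, P1 was highest for *DLL1* (228.2), *DLL3* (134.9), *LFNG* (80.3), *NRARP* (27.3) and *HES7* (81.8). The highest group was P2 for *NOTCH1* (53.8), P3 for *MESP2* (24.1), P4 for *HES5* (7.56), P8 for *JAG1* (93.4) and P9 for *HES1* (54.8). The lowest was P9 for *NOTCH1*, *NRARP*, *HES5* and *HES7*, t0 for *DLL1* and 36h for *JAG1* and *HES1*. Neighbors in these orders mostly overlapped. Of 15 neighboring pairs per gene, 1 was separated for *DLL3*, *JAG1*, *HES5*, *HES7* and *MESP2* and 0 for the other 5 genes.

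The course of *HES7* over the mean log2 CPM of the 16 groups was most like that of *DLL3* (Pearson r = 0.96), *DERA* (0.95) and *CDX1* (0.95) among 13297 genes. *DLL3* in turn was most like *ZCCHC9* (0.97), *HES7* (0.96) and *TBX6* (0.945). Nearest to the others were *HOXB1* for *DLL1* (0.93), *FAM3C* for *JAG1* (0.95), *DIRC2* for *NOTCH1* (0.97), *FAIM* for *LFNG* (0.93), *PHYHD1* for *NRARP* (0.95), *MRGBP* for *HES1* (0.95), *CCDC85C* for *HES5* (0.94) and *CACNA1I* for *MESP2* (0.95). Within the set, *HES7* and *HES1* had an r of -0.79 and *JAG1* and *MESP2* one of -0.59. The groups share cultures and follow each other in time, so these values describe the courses only.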

How the data were processed

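PolyA RNA-seq (75 bp single end) was measured in 47 libraries. Per the submitters' processing notes the authors used cutadapt 1.16, STAR 2.5.2b and RSEM 1.3.0 with GRCh38, and deposited expected counts and TPM per gene and library. Of the expected counts 9.33% were not whole and were rounded. Annotation release and strand setting are not given in the sources used here. Symbols came from GENCODE 29 (57447 of 58051 identifiers matched, 604 not).

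Expected counts were tested with edgeR 4.0.16 (R 4.3.3, TMM, filterByExpr, quasi-likelihood, differentiation as a block), in 1 fit of 35 whole cultures (21750 genes) and 1 of 12 fractions (18885 genes), with Benjamini-Hochberg adjustment over all genes tested. Fits were also run on simulated counts drawn with a common spread for all genes and no difference between differentiations. Those counts lack the shifts between differentiations seen here, so they cannot show how the fits handle them. DESeq2 1.42.0, other filters and scalings, and leaving out libraries were alternatives. TPM served for levels. Libraries were paired by number, taken to mark the 3 experiments that the series' design text describes as sampled over time (P9 in 2 of them). Correlations of deviations between libraries with the same number averaged 0.65 between fractions at P5 and 0.78 at P8. Between P5 and P8 they averaged 0.36 in EPI and 0.28 in MES, and between successive whole-culture groups compared they ran from -0.01 (36h with t0) to 0.31 (P8 with P5). No replicate pair agreed within sampling noise.

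The 10 genes and the lists were chosen with earlier results of these data known, and the averages over passages and the block within passages were chosen after seeing the data. All 10 genes were to be named in each comparison. Values are printed for those described and, in some comparisons, only the range for the others. From each list at most 4 genes per comparison and direction were named, by size of change among those that passed.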

Additional observations from a re-analysis of the deposited data

How the results depend on the processing

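Counts of the 10 genes that passed moved with the limit on the adjusted p, the tool and the differentiations included. At 36h against t0 1 passed, against 3 at a 5% limit, without libraries of low depth, with all 47 libraries in one fit or with DESeq2, 0 with the compared groups only, and 0 to 3 with 1 differentiation left out. For the average of P1 to P3 against t0 3 passed, against 6 at 5%, 5 with DESeq2, 1 with the compared groups only and 0 to 3 with 1 left out. For P6 to P8 against P1 to P3 6 passed, and 3 to 5 with 1 left out, not always from among those 6. With 1 left out the range was 0 to 5 for P3 against P1, 0 to 3 for P10 against P8 and 0 to 1 for P8 EPI against P5 EPI. DESeq2 passed 1 for P5 against P3, 2 for P9 against P8 (2 also at 5%), 1 for P5 MES against EPI, 2 for P8 EPI against P5 EPI (2 also at 5%) and 1 for P8 MES against P5 MES. *MESP2* at P3 against P1 (1.04) changed sign without differentiation 1, with a range of -4.19 to 6.32 over the differentiations left out. The cause of these shifts was not tested.

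Without the replicate block the same number of the 10 genes passed in each comparison (1 at 36h against t0, 3 and 6 for the averages). With the block within each passage 1 passed at P5 MES against EPI. Fractions of 1 culture deviated together at P5 and at P8 (mean correlations 0.65 and 0.78). Over all genes, the count that passed at 36h against t0 ran from 83 to 990 and that for P10 against P8 from 0 to 917, against 589 and 19. Genes with few counts, *HES5* and *MESP2* after P5, are limited by depth.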
